A study of Homo sapiens with 18 samples.

Results

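The genes described here encode 37 lysosomal hydrolases, lysosomal membrane proteins and regulators of lysosomal genes. They were taken by name, and each of the 37 had a row among the 26249 genes of the deposited FPKM table (fragments per kilobase of transcript, scaled between libraries). A gene entered the tests when its mean over the 18 libraries was at least 1 FPKM, which 11477 genes and 35 of these 37 reached. The exceptions were CTSS and TFEB, which are given by level only. The question is whether a lysosomal response accompanied the rise of sterol synthesis genes under DCLK1-IN-1.

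The cells were PATU-8988T and PATU-8902, which are established cell lines from human pancreatic ductal adenocarcinoma (PDAC). For each of them there are 3 libraries after 24 h in the solvent DMSO, 3 after 6 h and 3 after 24 h in 2.5 µM DCLK1-IN-1. This compound inhibits DCLK1, a doublecortin-like protein kinase. No genotype other than the line was given, and no DMSO group was taken at 6 h, so in the 6 h comparisons drug and time cannot be told apart. The libraries of a group are described as biological replicates.

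Lysosomes are acidic organelles in which hydrolases degrade proteins, glycans, lipids and nucleic acids. A proton pump, the V-ATPase, acidifies them, heavily glycosylated proteins line their membrane, and most of their enzymes are delivered through the mannose 6-phosphate receptors. The transcription factors TFEB, TFE3 and MITF move to the nucleus when lysosomes are impaired or nutrients run short, and they bind a palindromic element of many lysosomal gene promoters, the CLEAR element. Lysosomes also release the cholesterol of endocytosed lipoproteins, so compounds that block its exit are known to raise lysosomal and sterol synthesis genes. Pancreatic cancer cells are known to depend on this system for nutrients.

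The CLEAR element is shown first because it is a known shared control of many lysosomal genes. Its share among such genes is therefore a description and not a test. RefSeq promoters (build GRCh38.p14, from 250 bases before to 50 after the start) matched 26 of the 37 genes. The CLEAR palindrome, which is spelled out in capitals in the GAA line below and reads the same on both strands, occurred with at most 1 mismatch in 9 of the 26 (34.6%), beside 2.18% of 27305 promoters and 3.9% of the 8619 promoters of tested genes. Without a mismatch the palindrome was found in 3 of the 26 (11.5%), beside 0.381% of all promoters. Its core CACGTG also stood in 9 of the 26 (34.6%), beside 7.43% of all promoters, but these were not the same 9 genes. A closest match of each of the 9 genes follows (LAMP1, CTSA and ATP6V0D1 held further matches with as many mismatches, and GAA a second exact one) with 10 bases on each side, 5′ to 3′ on the strand of the gene, with the match in capitals.
GAA, chr17:80101493-80101522, + strand: gggaggccgcGTCACGTGACccaccgcggc
GALNS, chr16:88857104-88857133, − strand: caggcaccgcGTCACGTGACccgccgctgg
MCOLN1, chr19:7522598-7522627, + strand: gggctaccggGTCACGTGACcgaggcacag
LAMP1, chr13:113297199-113297228, + strand: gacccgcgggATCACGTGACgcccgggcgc
CTSA, chr20:45891298-45891327, + strand: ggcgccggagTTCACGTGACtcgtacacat
ATP6V0D1, chr16:67481199-67481228, − strand: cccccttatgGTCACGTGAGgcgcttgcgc
TPP1, chr11:6619413-6619442, − strand: catgtgatccGTCACATGACagcagatccg
GUSB, chr7:65982243-65982272, − strand: acaccggcgcGTCACGCGACccgccctacg
PPT1, chr1:40097238-40097267, − strand: cgcgcccgcgGTCATGTGACacagcgaaga

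The promoter of GAA, the lysosomal alpha-glucosidase, thus held 2 exact copies of the palindrome, and that of LAMP1 held 5 copies with 1 mismatch. CD63, CTSD and NEU1 held the core without the longer palindrome. In TPP1, GUSB and PPT1 the mismatch lay in the core, so their promoters held no CACGTG in the window. A match describes letters in this window and is not a measured binding site.

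Values are given on 2 scales. On the spike-in scale the values are as deposited, level on the added ERCC control RNAs. On the median-centred scale the log2 values of a library are relative to its own median over the tested genes. The library median ran from 6.12 to 17.4 FPKM while the mean deviation of 47 spike-in controls stayed between -0.06 and 0.05 on the log2 scale. PATU-8988T DMSO replicate 1 stood apart, with a median of 6.12 FPKM beside 12.1 and 10.2 in the other two DMSO libraries of that line. The summed FPKM of the 37 genes was 990 in this library and 2412 and 2132 in the other two. The 37 genes made up 0.367% to 0.415% of the summed FPKM in PATU-8988T and 0.318% to 0.361% in PATU-8902. The table holds no counts, so depth is unknown.

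The line labels were set against cell type markers. The 6 epithelial and ductal markers summed to between 2881 and 5304 FPKM in PATU-8902, and none of them averaged below 1 FPKM. In PATU-8988T they summed to between 381 and 973 FPKM. There KRT7, KRT19 and CDH1 stayed below 1 FPKM, while in DMSO KRT8 measured 168 to 442 FPKM, KRT18 201 to 514 FPKM and EPCAM 11.1 to 16.7 FPKM. In that line the mesenchymal marker VIM averaged 212 FPKM in DMSO. The 5 leukocyte and macrophage markers, which would mark cells rich in lysosomes, each averaged below 1 FPKM in every group, with a summed level of at most 1.02 FPKM per library. Markers of fibroblasts, endothelium and acinar cells were also below 1 FPKM in each group.

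Lysosomal genes were expressed at medium to high levels in both lines under DMSO. In PATU-8988T 34 of the 37 reached a mean of 1 FPKM and 5 reached 100 FPKM, and in PATU-8902 these numbers were 35 and 6. FPKM values are per transcript length, so levels of different genes can be set side by side. From the top the order was SQSTM1, CD63, PSAP, CTSZ and LAMP1 in PATU-8988T, and CD63, CTSD, CTSZ, PSAP and LAMP1 in PATU-8902. Of the 36 neighbouring pairs in this order the replicate ranges overlapped in all pairs of PATU-8988T and did not overlap in 10 pairs of PATU-8902, among them CD63 above CTSD and CTSC above PPT1.

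**Figure D1:**
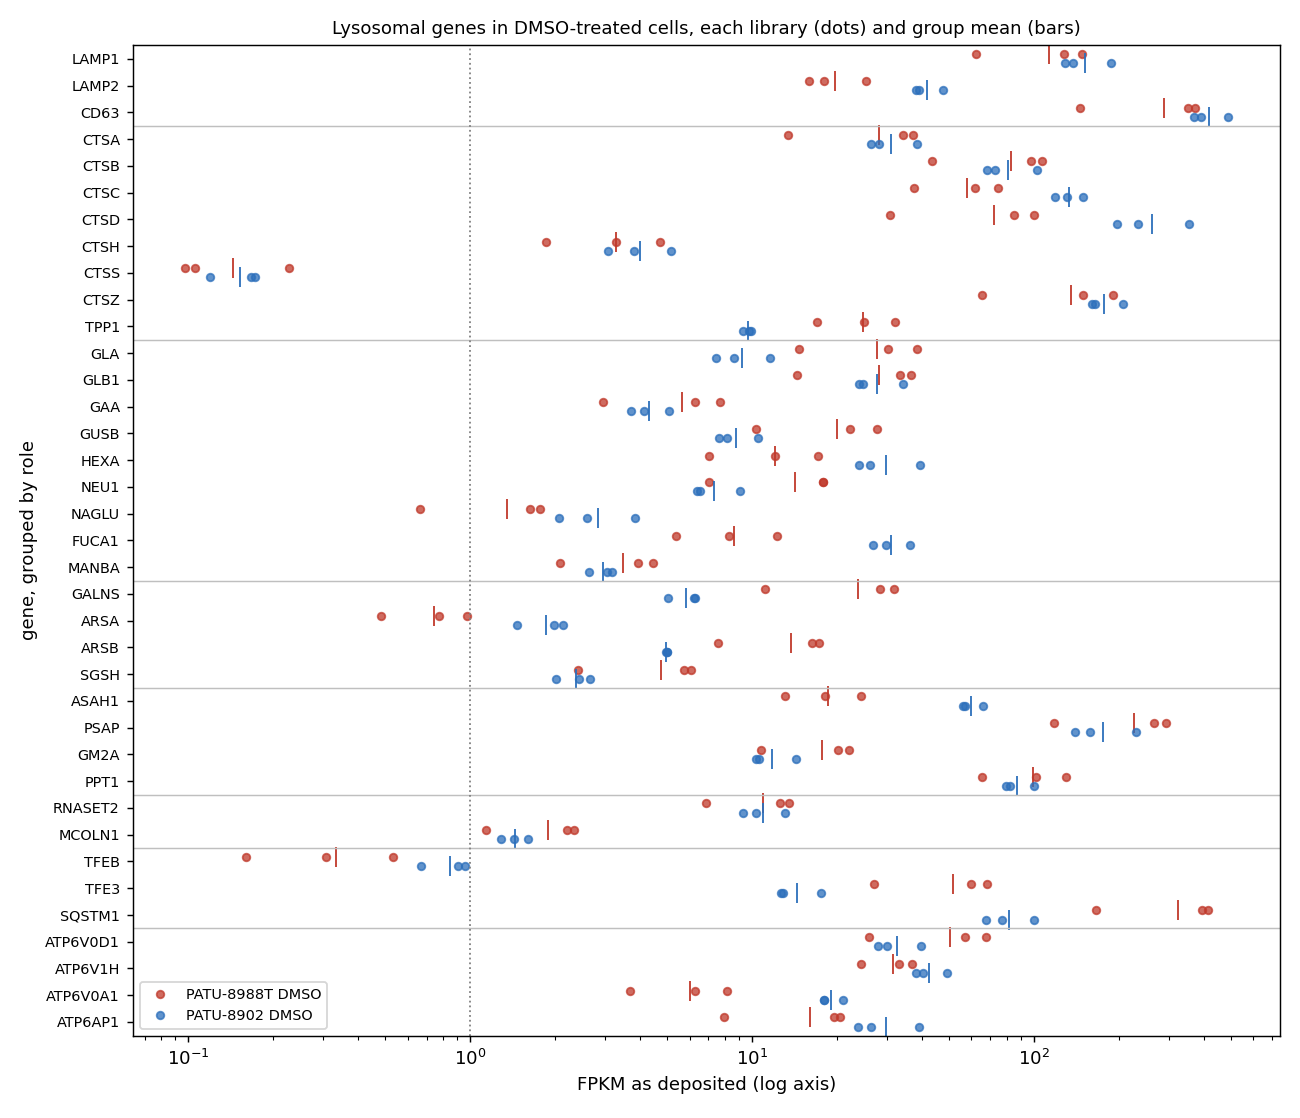
FPKM of the 37 lysosomal genes in DMSO (horizontal log axis), by gene and role (vertical axis), with a dot for each of 3 libraries per line and a bar for the group mean. The means of CD63, PSAP, CTSZ and LAMP1 lie above 100 FPKM in both lines, while CTSS and TFEB lie below 1 FPKM.

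Among the membrane glycoproteins, CD63, a tetraspanin of late endosomes and lysosomes, averaged 290.2 ± 126 FPKM (SD, n = 3) in PATU-8988T and 417 ± 63.8 in PATU-8902. LAMP1, the main structural glycoprotein of the membrane, averaged 113 ± 44.9 and 151 ± 31.7 FPKM. LAMP2, which also serves chaperone-mediated autophagy, was lower at 19.7 ± 4.91 and 41.6 ± 5.14 FPKM. Both lines thus carried CD63 and LAMP1 above LAMP2.

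Peptidases covered a wide range. The aspartic protease CTSD averaged 72.1 FPKM in PATU-8988T and 262 FPKM in PATU-8902, and the exopeptidase CTSC 57.8 and 133 FPKM. CTSZ and CTSB, both cysteine cathepsins, averaged 135 and 82.6 FPKM in PATU-8988T and 177 and 81.1 FPKM in PATU-8902. CTSA, which shields NEU1 and GLB1 in a complex, stood at 28.2 and 31.1 FPKM, and CTSH at 3.29 and 4.01 FPKM. CTSS, a cathepsin best known from antigen-presenting cells, lay between 0.0935 and 0.228 FPKM over all 18 libraries, near the floor of the table (0.0614 to 0.116 FPKM per library).

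Glycosidases and sulfatases were mostly lower than cathepsins. The range over the 9 glycosidases in DMSO was 1.35 FPKM (NAGLU, a heparan sulfate enzyme) to 28.2 FPKM (GLB1, the beta-galactosidase) in PATU-8988T, and 2.84 (NAGLU) to 31.03 FPKM (FUCA1, the alpha-fucosidase) in PATU-8902. The 4 sulfatases ran from 0.742 FPKM (ARSA, which acts on sulfatides) to 23.8 FPKM (GALNS, which acts on keratan sulfate) in PATU-8988T. In PATU-8902 they lay between 1.86 and 5.84 FPKM. The 4 lipid-handling genes covered a wide range. PSAP, the precursor of the saposins that present sphingolipids to hydrolases, averaged 226 and 176 FPKM, and PPT1, which removes fatty acids from proteins, 98.8 and 87.2 FPKM. ASAH1, the acid ceramidase, averaged 18.5 and 59.8 FPKM, and GM2A, the activator of ganglioside breakdown, 17.6 and 11.7 FPKM.

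The proton pump subunits ATP6V0D1, ATP6V1H, ATP6V0A1 and ATP6AP1 averaged 6.04 to 50.2 FPKM in PATU-8988T and 19.01 to 42.5 FPKM in PATU-8902. MCOLN1, the lysosomal calcium channel, was low at 1.89 and 1.44 FPKM.

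The lines differed in which lysosomal genes they favoured. In DMSO, 17 of the 35 tested genes passed in the same direction on both scales, 8 higher in PATU-8902 (LAMP2, CTSC, CTSD, HEXA, FUCA1, ASAH1, ATP6V0A1 and ATP6AP1) and 9 higher in PATU-8988T (TPP1, GLA, GUSB, NEU1, GALNS, ARSB, SGSH, TFE3 and SQSTM1). How many of all genes pass on both scales was not computed, so these 17 have no share beside them. On each scale alone the count in either direction together was near that of other genes. By direction it was not, with fewer members higher and more members lower in PATU-8902. On the median-centred scale 27 of 35 passed, beside 72.2% of all tested genes, with 8 higher in PATU-8902 (all genes 34.4%) and 19 lower (all genes 37.8%). As deposited, on the spike-in scale, 19 of 35 passed, beside 54.2%, with 10 higher (41.8%) and 9 lower (12.4%). The median log2 difference of the 35, PATU-8902 minus PATU-8988T, was -0.45 beside -0.05 for all genes after centring and 0.05 beside 0.45 on the spike-in scale. In 7 genes (LAMP1, CTSA, CTSB, CTSH, GLB1, RNASET2 and ATP6V1H) the sign of the difference depended on the scale. LAMP1, CD63, CTSA, CTSH, CTSZ and ATP6V1H passed on neither. With single libraries left out, 3 of the 17 calls were lost in at least 1 fit. ATP6AP1 was lost on both scales without PATU-8988T replicate 1 or PATU-8902 replicate 1. SGSH was lost on the spike-in scale without PATU-8988T replicate 2 or 3 or PATU-8902 replicate 2, and NEU1 is described below.

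**Figure D2:**
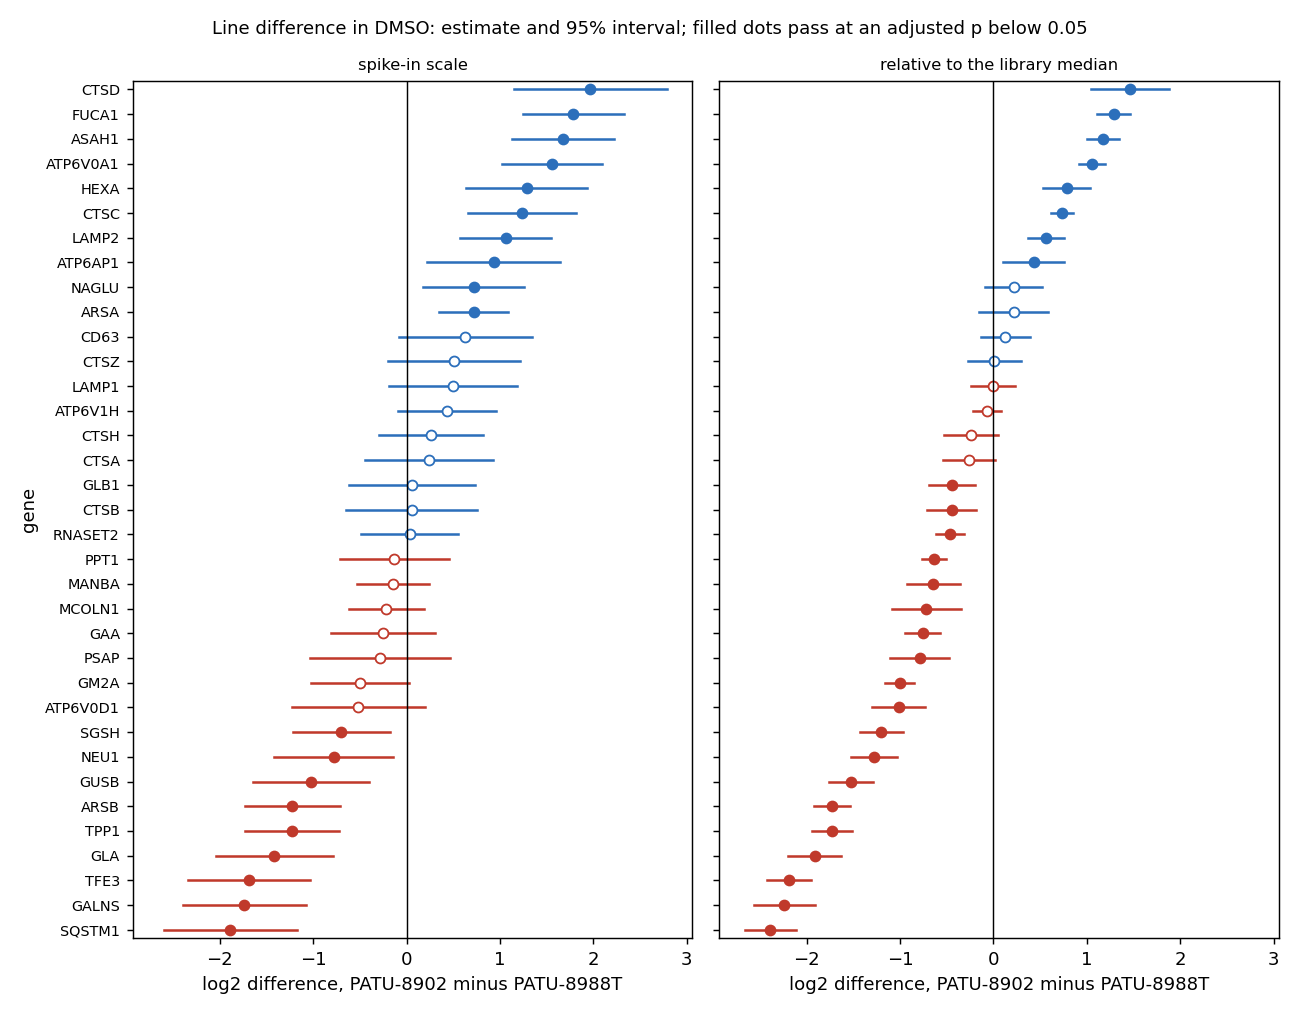
Log2 difference in DMSO, PATU-8902 minus PATU-8988T (horizontal axis), for the 35 tested lysosomal genes (vertical axis) on the spike-in scale (left) and the median-centred scale (right), with 95% intervals of the limma model, 3 libraries per line. SQSTM1, GALNS and TFE3 lie furthest to the left and CTSD and FUCA1 furthest to the right on both scales.

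SQSTM1, the autophagy receptor p62 and a known TFEB and NRF2 target, was the gene with the largest difference after centring. Its FPKM values in PATU-8988T DMSO were 166, 413 and 393, and in PATU-8902 DMSO 99.8, 67.4 and 77.2. The groups did not overlap, and the log2 difference was -2.39 ± 0.13 (SE, limma adjusted p = 6.83e-11) after centring and -1.89 ± 0.34 on the spike-in scale. TFE3, a transcription factor of the CLEAR element, measured 27.1, 68.2 and 59.8 FPKM in PATU-8988T and 17.6, 12.9 and 12.7 FPKM in PATU-8902. Its libraries also did not overlap, with a log2 difference of -2.19 ± 0.11 after centring and -1.69 ± 0.31 on the spike-in scale.

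Hydrolases of glycan breakdown made up most of the other genes that were higher in PATU-8988T. GALNS stood at 11.1, 31.9 and 28.4 FPKM there and at 6.24, 5.02 and 6.25 FPKM in PATU-8902. ARSB, the arylsulfatase of dermatan sulfate, stood at 7.58, 17.2 and 16.3 FPKM against 4.97, 4.99 and 4.95. GLA, the alpha-galactosidase that is deficient in Fabry disease, stood at 14.6, 38.5 and 30.3 FPKM against 11.5, 7.47 and 8.63. In these 3 genes every PATU-8988T library lay above every PATU-8902 library, and the centred log2 differences were -2.24 for GALNS, -1.72 for ARSB and -1.92 for GLA. GUSB, the beta-glucuronidase, measured 10.3, 27.7 and 22.2 FPKM in PATU-8988T and 10.5, 7.63 and 8.12 in PATU-8902, so that its lowest PATU-8988T library lay inside the other group before centring. Its log2 difference was -1.52 ± 0.11 after centring and -1.02 ± 0.30 on the spike-in scale.

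TPP1 and NEU1 followed. The tripeptidase TPP1 measured 16.98, 32.2 and 25.0 FPKM in PATU-8988T and 9.78, 9.93 and 9.27 FPKM in PATU-8902, without overlap (centred log2 difference -1.73 ± 0.10). The sialidase NEU1 measured 7.01, 17.8 and 17.8 FPKM and 9.09, 6.37 and 6.54 FPKM, with the low value in PATU-8988T DMSO replicate 1. After centring its groups did not overlap (-1.28 ± 0.12). On the spike-in scale the difference was -0.78 ± 0.30 (limma adjusted p = 0.0369), and with single libraries left out it held in 2 of 6 fits. Those without PATU-8988T replicate 2 (-0.57) or 3 (-0.57) and without PATU-8902 replicate 2 (-0.70) or 3 (-0.72) did not pass.

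CTSD and FUCA1 showed the opposite direction. CTSD measured 30.9, 100.3 and 85.1 FPKM in PATU-8988T and 354, 197 and 234 FPKM in PATU-8902, a log2 difference of 1.46 ± 0.20 after centring and 1.97 ± 0.39 on the spike-in scale. FUCA1 measured 5.38, 12.2 and 8.28 FPKM and 36.2, 26.9 and 29.9 FPKM, a difference of 1.28 ± 0.08 after centring and 1.79 ± 0.26 on the spike-in scale. Neither gene had overlapping groups. ASAH1 had the largest centred difference after these 2 in this direction (1.17 ± 0.08), followed by ATP6V0A1 (1.06 ± 0.06).

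Other genes of the lysosomal system also differed between the lines. Of 89 further genes in 6 lists, 85 were tested. After centring 19 passed as higher and 51 as lower in PATU-8902, beside 34.4% and 37.8% of all tested genes. On the spike-in scale 24 passed as higher and 17 as lower, beside 41.8% and 12.4%. Among those lower on both scales were MITF (-2.28 centred, -1.78 spike-in), another factor that binds the CLEAR element, RRAGD (-3.43 and -2.93), a GTPase through which amino acids signal to mTORC1, and the autophagy genes MAP1LC3B (-1.67 and -1.17), WIPI1 (-1.89 and -1.39) and OPTN (-2.38 and -1.88). GALC, the galactosylceramidase (-4.48 and -3.98), and CTSF, a cathepsin (-4.05 and -3.55), had larger differences. MITF, RRAGD and CTSF lay near the floor of the table in PATU-8902, with centred log2 values of at most 0.0826 in DMSO. The size of their differences therefore depends on the 1 FPKM added before taking logs. LGALS3, a galectin that binds damaged lysosomes, was higher in PATU-8902 (2.82 and 3.32), as were M6PR, a mannose 6-phosphate receptor (1.94 and 2.44), IDS, the iduronate sulfatase (1.81 and 2.31), and LIPA, the lysosomal acid lipase (1.65 and 2.15). These genes were chosen for naming after their values were seen. The list of TFEB control and autophagy was not lower in PATU-8902 throughout. Its RPTOR had centred log2 values of 1.96 to 2.19 in PATU-8988T DMSO and 2.84 to 2.99 in PATU-8902 DMSO. Its UVRAG had 3.07 to 3.26 and 3.48 to 3.54. The lines also differ in epithelial and mesenchymal markers, as given above, and the part of that difference was not tested.

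The 9 genes with the palindrome at up to 1 mismatch had a median centred line difference of -0.76 (0 higher, 7 lower). The 16 tested genes whose matched promoter lacked such a match had -0.34 (5 higher, 8 lower). Of all tested genes 34.4% were higher and 37.8% lower on this scale. On the spike-in scale the median was -0.255 with the match (0 higher, 3 lower) and 0.16 without it (5 higher, 5 lower). There 41.8% of all tested genes were higher and 12.4% lower. The difference between the 2 promoter groups was not tested on either scale.

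The transcription factors themselves stood at different levels. TFEB lay below TFE3 in every library, with 0.16, 0.307 and 0.533 FPKM in PATU-8988T DMSO, 0.235, 0.321 and 0.302 at 6 h and 0.242, 0.191 and 0.295 after 24 h. In PATU-8902 TFEB measured 0.672, 0.903 and 0.961 FPKM in DMSO, 1.06, 0.603 and 0.405 at 6 h and 0.28, 0.393 and 0.533 at 24 h. Unlike TFE3 and MITF, TFEB was thus higher in PATU-8902 in DMSO, without overlap. Without the filter on low values it passed as higher there on both scales. The 3 libraries at 24 h in PATU-8902 all lay below the 3 DMSO libraries, at levels too low for the gene to enter the tests. Of the tested genes 0.653% lay wholly below DMSO in this comparison as deposited. The floor of the table was 0.0614 to 0.116 FPKM per library. With the filter on low values removed, TFEB did not pass in this comparison after centring. TFE3 measured 30.4, 37.8 and 52.2 FPKM at 6 h and 27.1, 32.8 and 34.05 at 24 h in PATU-8988T, and 10.8, 19.1 and 12.4 at 6 h and 15.7, 11.96 and 19.04 at 24 h in PATU-8902. These ranges overlapped with DMSO in both lines, and TFE3 passed in no drug comparison on either scale.

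SQSTM1 protein is often read as a marker of impaired autophagy, but only RNA was measured here, so impairment was not tested. It measured 209, 245 and 364 FPKM at 6 h and 211, 239 and 243 at 24 h with the inhibitor in PATU-8988T. In PATU-8902 it measured 67.5, 123 and 78.7 FPKM at 6 h and 78.99, 76.7 and 119.99 at 24 h. All 4 treated groups overlapped with their DMSO libraries. The centred log2 difference from DMSO was 0.10 ± 0.13 at 24 h in PATU-8902 (95% interval -0.18 to 0.37, limma adjusted p = 0.848) and -0.03 ± 0.13 at 24 h in PATU-8988T (interval -0.30 to 0.24).

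**Figure D3:**
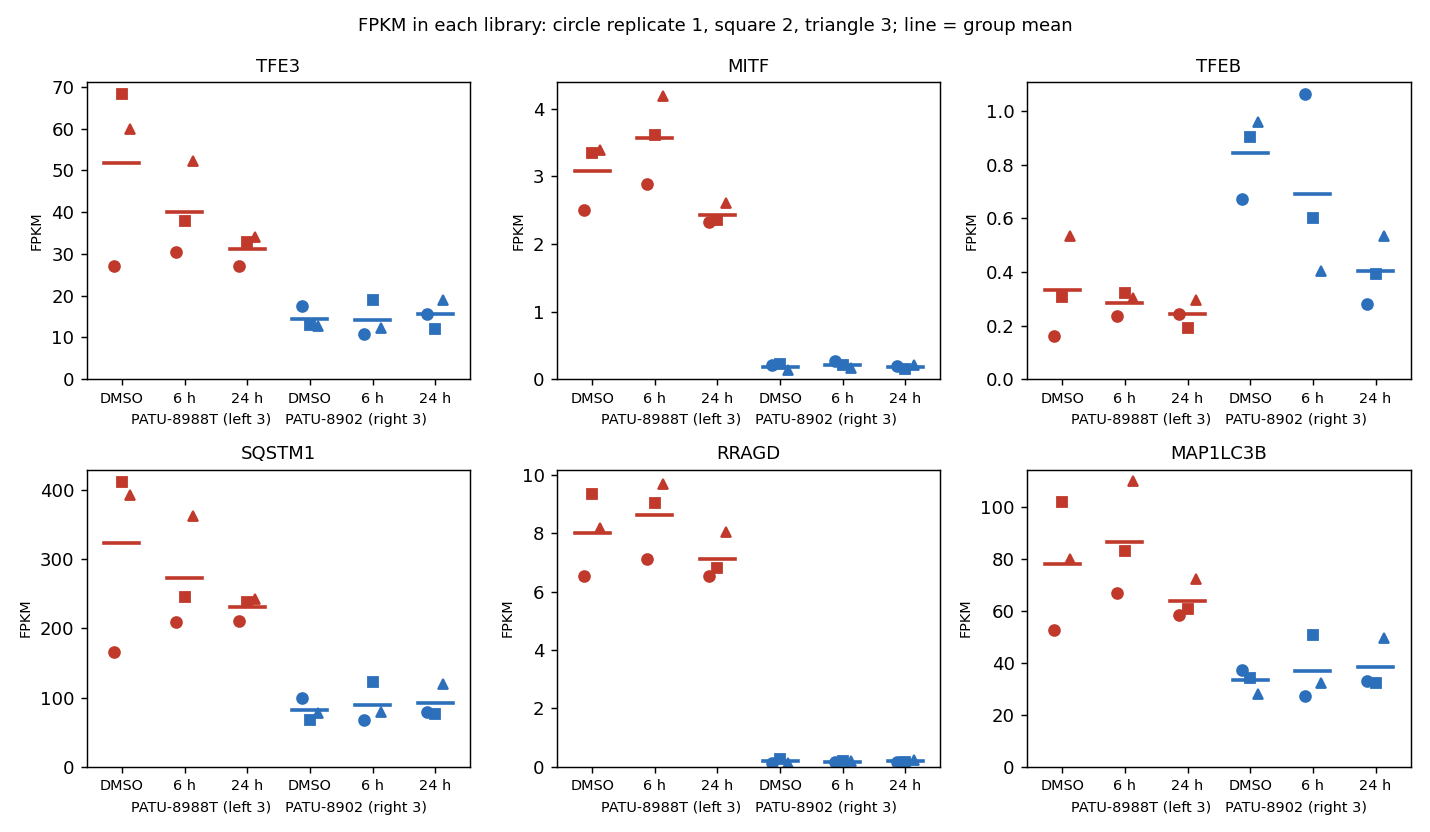
FPKM in each library (vertical axis from 0) for TFE3, MITF, TFEB, SQSTM1, RRAGD and MAP1LC3B in DMSO, 6 h and 24 h of inhibitor, with PATU-8988T in red and PATU-8902 in blue and a line at each group mean of 3 libraries. TFE3, MITF, SQSTM1, RRAGD and MAP1LC3B are higher in PATU-8988T, and PATU-8988T DMSO replicate 1 (circle) lies below the other two DMSO libraries in each of them. TFEB goes the other way in DMSO, with higher values in PATU-8902.

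Under the inhibitor 1 lysosomal gene passed the test, while the sterol genes rose in PATU-8902. In PATU-8902 at 24 h, 1 of the 35 passed after centring, RNASET2, which was lower, beside 0.444% of all tested genes (0.0261% lower and 0.418% higher). Without centring 0 of 35 passed, beside 0.113% of all genes. The median centred log2 difference of the 35 was -0.07, with single genes from -0.42 (CTSB) to 0.34 (NEU1), and the median of all genes was -0.02. In the same libraries all 8 sterol reference genes, among them HMGCS1 of mevalonate synthesis and the sterol sensor partner INSIG1, passed as higher after centring, with a median of 1.49, and 7 of the 8 passed on the spike-in scale. These 8 were listed because they were known from earlier results of these data to have risen, so they serve as a yardstick and not as evidence.

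**Figure D4:**
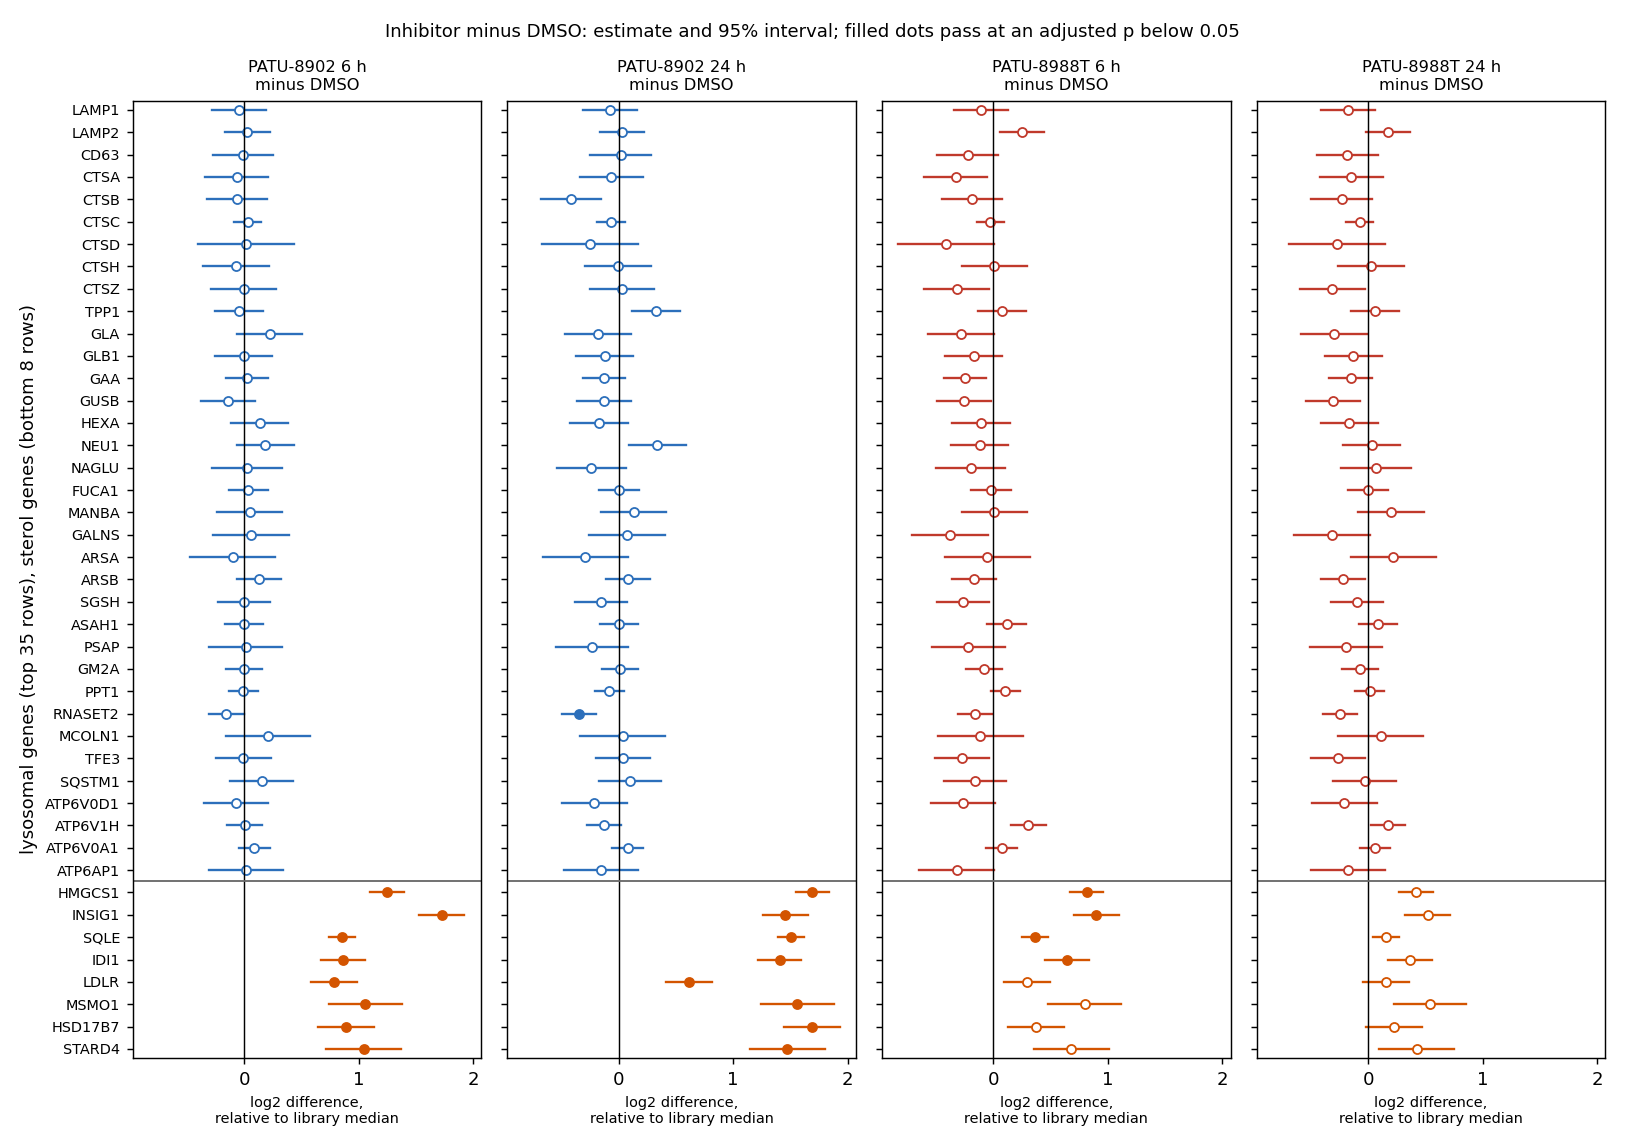
Centred log2 difference from DMSO (horizontal axis) with 95% intervals for the 35 tested lysosomal genes (red or blue) and 8 sterol reference genes (orange), in 4 panels by line and time, 3 libraries per group. The lysosomal genes lie between -0.42 and 0.34 in all 4 panels, with 1 filled dot (RNASET2, PATU-8902 at 24 h), while all sterol genes lie above 0.

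The 95% intervals give the size of change that these data allow. They are intervals of log2(FPKM + 1). For low genes such as ARSA (mean 1.15 FPKM) a larger change in FPKM can thus lie within a bound. In PATU-8902 at 24 h the 95% interval of 31 of the 35 genes lay within a 1.5-fold change in either direction after centring (88.6% of all genes), and that of 34 lay below a 1.5-fold rise. At 6 h it lay within 1.5-fold for all 35 tested genes (92.6% of all genes). In PATU-8988T it did so for 30 at 24 h (79.1%) and 30 at 6 h (78.6%). On the spike-in scale the median standard error of the 35 was 0.28, against 0.12 after centring. There no more than 11 of 35 intervals in any drug comparison lay within 1.5-fold. For most members a change of this size could therefore not be excluded on that scale. In bulk RNA a smaller share of cells expressing a gene and less RNA per cell cannot be told apart.

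RNASET2, a lysosomal acid ribonuclease, was the member that passed. Its FPKM values in PATU-8902 were 13.1, 9.27 and 10.3 in DMSO, 7.59, 12.03 and 8.70 at 6 h and 8.001, 7.50 and 10.9 at 24 h. In PATU-8988T they were 6.84, 13.5 and 12.53 in DMSO, 7.14, 9.56 and 11.4 at 6 h and 5.80, 7.00 and 7.21 at 24 h. As deposited the treated and DMSO libraries overlapped in each line and time. After centring every treated library lay below every DMSO library in all 4 drug comparisons, which share a DMSO group within each line. Of all genes 6.99% (24 h) and 4.37% (6 h) did so in PATU-8902, and 3.98% (24 h) and 9.51% (6 h) in PATU-8988T. The share in all 4 together was not computed. In PATU-8902 at 6 h the groups nearly touched, with a highest treated value of 3.114 and a lowest DMSO value of 3.115. RNASET2 also had the smallest p of the members in PATU-8902 at both times and in PATU-8988T at 24 h.

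RNASET2 fell by 0.35 ± 0.07 on the centred log2 scale in PATU-8902 at 24 h (95% interval -0.50 to -0.20, limma adjusted p = 0.0401). The other 3 comparisons gave -0.15 ± 0.07 (PATU-8902, 6 h), -0.25 ± 0.07 (PATU-8988T, 24 h, adjusted p = 0.295) and -0.16 ± 0.07 (PATU-8988T, 6 h), and none of these passed. On the spike-in scale the difference at 24 h in PATU-8902 was -0.28 ± 0.25. When single libraries were left out, the call at 24 h in PATU-8902 held in 1 of 6 fits, the one without DMSO replicate 2 (-0.42, adjusted p = 0.0117). Without DMSO replicate 1 it was -0.29 (adjusted p = 0.270) and without DMSO replicate 3 it was -0.33 (adjusted p = 0.209). Without 24 h replicate 1, 2 or 3 the adjusted p was 0.109, 0.190 and 0.140.

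The remaining members did not pass in PATU-8902. At 24 h, 4 of 35 (11.4%) had an unadjusted p below 0.05 after centring, beside 7.72% of all genes. Besides RNASET2 these were CTSB (-0.42 ± 0.12, limma adjusted p = 0.382, all treated libraries below DMSO), TPP1 (0.32 ± 0.10, adjusted p = 0.407, all above) and NEU1 (0.34 ± 0.12, adjusted p = 0.536, all above). In all, 2 members lay wholly above and 2 wholly below DMSO, beside 6.11% and 6.99% of all genes after centring. As deposited, 3 (TPP1, MANBA and GALNS) lay wholly above and 0 below, beside 5.84% and 0.653%. At 6 h, 0 of 35 passed on either scale (all genes 0.113% after centring and 0.00871% on the spike-in scale), 1 (2.86%, all genes 2.35%) had an unadjusted p below 0.05 after centring and 0 (all genes 0.688%) on the spike-in scale. The median centred difference at 6 h was 0.004, while the 8 sterol genes all passed after centring with a median of 0.97. Of these, INSIG1 alone passed at 6 h on the spike-in scale.

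By role, at 24 h in PATU-8902 the centred medians were 0.02 for the 3 membrane glycoproteins, -0.06 for the 7 tested peptidases, -0.13 for the 9 glycosidases, -0.04 for the 4 sulfatases, -0.04 for the 4 lipid hydrolases and activators and -0.14 for the 4 proton pump subunits. For the remaining pairs the medians were -0.16 (RNASET2 and MCOLN1) and 0.07 (TFE3 and SQSTM1). The 9 genes with the palindrome had a median of -0.08 and the 16 without it 0.01. Of the 3 genes with an exact palindrome, MCOLN1 stood at 0.03, GALNS at 0.07 and GAA at -0.13, and none passed.

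**Figure D5:**
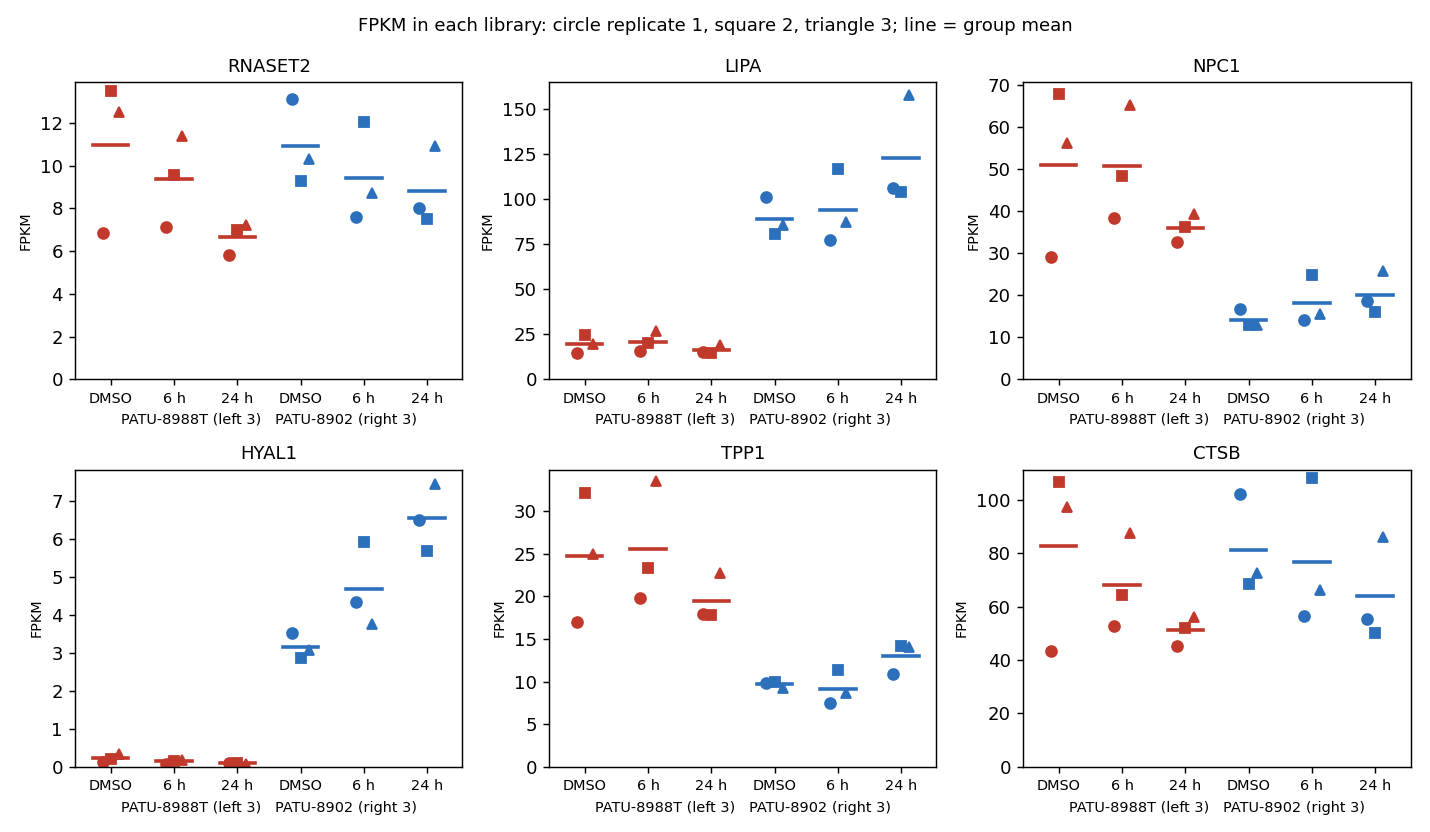
FPKM in each library (vertical axis from 0) for RNASET2, LIPA, NPC1, HYAL1, TPP1 and CTSB in DMSO, 6 h and 24 h of inhibitor, with PATU-8988T in red and PATU-8902 in blue and a line at each group mean of 3 libraries. HYAL1 in PATU-8902 goes from 2.86 to 3.53 FPKM in DMSO to 5.66 to 7.44 FPKM at 24 h, while RNASET2 as deposited overlaps between DMSO and 24 h.

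Among the 85 other lysosomal genes tested, those that passed under the inhibitor were few and were higher. In PATU-8902 at 24 h, 2 passed after centring and 1 on the spike-in scale, beside 0.444% and 0.113% of all tested genes. LIPA, which frees cholesterol from its esters in the lysosome, measured 101, 80.4 and 85.2 FPKM in DMSO and 106, 104 and 157 at 24 h, with every treated library above DMSO. It rose by 0.38 ± 0.07 after centring (limma adjusted p = 0.0197), and stood at 0.44 ± 0.26 on the spike-in scale. NPC1, which exports that cholesterol from the lysosome, measured 16.6, 12.8 and 12.9 FPKM in DMSO, 14.2, 24.9 and 15.6 at 6 h and 18.5, 15.9 and 25.7 at 24 h. It rose by 0.40 ± 0.08 after centring (adjusted p = 0.0469), with groups that overlapped as deposited and not after centring. At 6 h NPC1 stood at 0.36 ± 0.08 without passing (adjusted p = 0.245).

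HYAL1, a lysosomal hyaluronidase, passed on the other scale. It measured 3.53, 2.86 and 3.06 FPKM in PATU-8902 DMSO, 4.32, 5.90 and 3.76 at 6 h and 6.50, 5.66 and 7.44 at 24 h, without overlap between DMSO and either time. At 24 h it rose by 0.86 ± 0.15 on the spike-in scale (limma adjusted p = 0.0231), and its centred difference was 0.80 ± 0.18 (adjusted p = 0.104). In PATU-8988T HYAL1 lay between 0.0738 and 0.342 FPKM. These 3 calls were not stable to single libraries. With single libraries left out, LIPA held in 1 of 6 fits (without 24 h replicate 1), with 0.33 to 0.40 over the 6. NPC1 held in 1 (without 24 h replicate 2), with 0.36 to 0.46. HYAL1 on the spike-in scale held in 2 (without DMSO replicate 1 or 24 h replicate 2), with 0.77 to 0.94.

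The other lists held no call in any drug comparison. In PATU-8902 at 24 h the 19 tested genes of TFEB control and autophagy had a centred median of 0.09, the 12 other proton pump subunits -0.01 and the 7 genes of enzyme delivery -0.07. The galectins that gather on damaged lysosomes did not pass either, with LGALS3 at -0.01 ± 0.09, LGALS1 at -0.18 ± 0.20 and LGALS8 at 0.17 ± 0.10. These are RNA values, and the place of the proteins in the cell was not measured. DCLK1, which encodes the targeted kinase, passed in no drug comparison (0.06 ± 0.24 at 24 h in PATU-8902 on the spike-in scale), and inhibition of a kinase need not alter its transcript.

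In PATU-8988T 0 of the 35 lysosomal genes passed at either time on either scale. All tested genes gave 0% at 24 h on both scales and 0% (spike-in) and 0.0784% (centred, 0.0523% higher and 0.0261% lower) at 6 h. The median centred difference of the 35 was -0.13 at 24 h and -0.16 at 6 h, beside 0.003 and -0.03 for all genes, and 7 (20.0%) and 10 (28.6%) of 35 had an unadjusted p below 0.05, beside 16.8% and 29.5% of all genes. On the spike-in scale the 24 h median was -0.48, beside -0.35 for all genes, and 5 of 35 (14.3%) had an unadjusted p below 0.05, beside 5.99%. After centring 0 of the 8 sterol reference genes passed at 24 h (median 0.39) and 4 at 6 h (median 0.66), and on the spike-in scale 0 passed at either time (medians 0.05 and 0.64).

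ATP6V1H, a regulatory subunit of the proton pump, had the smallest p in this line at 6 h. It measured 24.4, 37.0 and 33.2 FPKM in DMSO, 30.4, 36.9 and 49.7 at 6 h and 25.5, 25.3 and 31.9 at 24 h. In PATU-8902 it measured 49.2, 38.1 and 40.4 FPKM in DMSO, 32.4, 54.9 and 38.9 at 6 h and 36.1, 35.3 and 51.4 at 24 h. Treated and DMSO libraries overlapped as deposited in both lines. After centring the 6 h libraries of PATU-8988T lay above DMSO, with a difference of 0.30 ± 0.07 that did not pass (limma adjusted p = 0.0815). ASAH1 also lay wholly above DMSO (0.11 ± 0.08), and GAA (-0.25 ± 0.09), SGSH (-0.27 ± 0.11) and RNASET2 wholly below. These 2 and 3 genes stand beside 10.2% and 9.51% of all genes.

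The result in PATU-8988T rested on DMSO replicate 1, the library that stood apart. Without it 26 of the 35 lysosomal genes passed as lower at 24 h on the spike-in scale, where 56.7% of all genes passed as lower. After centring, 17 passed at 24 h, 2 higher (LAMP2 and ATP6V1H) and 15 lower, beside 40.8% of all genes (19.5% higher, 21.3% lower), and 20 at 6 h, 2 higher (the same 2) and 18 lower, beside 42.6% (18.8% higher, 23.7% lower). Among the genes lower at both times on the centred scale were CTSD, GLA, GAA, GUSB, GALNS and TFE3. With DMSO replicates 2 and 3 left out together instead, the arm holds 1 library, which is assumed to vary like the other groups. Then 0 members passed at either time on either scale, beside 0.0261% to 0.061% of all genes. Which of these DMSO libraries represents the untreated line was not tested.

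The drug effect did not pass as different between the lines for any member. For the 24 h effect 0 of 35 passed, beside 0.227% of all genes after centring (0.218% higher, 0.00871% lower) and 0.00871% on the spike-in scale. For the 6 h effect 0 of 35 passed, beside 0% on both scales. After centring 2 (5.71%) and 4 (11.4%) members had an unadjusted p below 0.05, beside 4.8% and 12.1% of all genes. Without centring 0 did at either time, beside 2.45% and 0.863%. ATP6V1H had the smallest p at both times, with PATU-8902 minus PATU-8988T differences of -0.30 ± 0.10 at 24 h (limma adjusted p = 0.868) and -0.30 ± 0.10 at 6 h (adjusted p = 0.403). Without PATU-8988T DMSO replicate 1, 2 members passed for the 24 h effect after centring, CTSZ as higher and ATP6V1H as lower. They stand beside 5.54% of all genes (3% higher, 2.54% lower). For the 6 h effect 13 members then passed after centring (11 higher, 2 lower), beside 20.1% of all genes (9.86% higher, 10.2% lower).

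Between 6 h and 24 h of inhibitor 0 members passed in either line on either scale. In PATU-8902 28 of all genes passed after centring (0.244%, with 0.209% higher and 0.0349% lower), and in PATU-8988T 0 did. In PATU-8902 5 members (14.3%) had an unadjusted p below 0.05 after centring, beside 8.55% of all genes. The smallest belonged to TPP1 (0.37 ± 0.10, limma adjusted p = 0.297), followed by GLA (-0.40 ± 0.14), CTSB (-0.36 ± 0.12), RNASET2 (-0.19 ± 0.07) and HEXA (-0.31 ± 0.12). In PATU-8988T none did after centring (all genes 4.74%). Without centring none did in either line, beside 1.72% of all genes in PATU-8902 and 5.79% in PATU-8988T.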

How the data were processed

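Polyadenylated RNA of 18 libraries was measured by single-end RNA-seq with ERCC spike-ins, per the labels' protocols. The authors deposited 1 table of FPKM values, made with HISAT, Cufflinks and Cuffnorm on hg19, per the submitters' processing notes. Tool versions and strand use are not given in the sources used here. Without counts, precision rests on the spread between libraries.

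FPKM values were analysed as log2(FPKM + 1), which understates changes of low genes, for the 11477 genes that averaged 1 FPKM or more. One trended model in limma 3.58.1 (R 4.3.3) covered all 6 groups, with 12 residual degrees of freedom, on values as deposited and after median-centring. There were 9 contrasts, and p-values are 2-sided with Benjamini-Hochberg adjustment over all tested genes, passing below 0.05. The model was tested on simulated data. ± is SD for FPKM and SE for log2 differences.

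The members, lists, tests and alternatives were chosen with earlier results of these data known. Values in each library are given for members that passed under the inhibitor, TFEB, TFE3, SQSTM1, the smallest p of each drug comparison and the 10 largest line differences without overlap after centring; genes of other lists are named where they passed or by smallest p. Promoters are from RefSeq on GRCh38.p14, a later build than that of the table. Alternatives were a pseudocount of 0.1, filters, a replicate block, rescaling by spike-ins, cyclic loess, fits of the compared groups and left-out libraries.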

Additional observations from a re-analysis of the deposited data

How the results depend on the processing

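The member count under the inhibitor depended on the scale and on single libraries. In PATU-8902 at 24 h the centred count of 1 (RNASET2) became 0 without the filter on low values (-0.27), 0 with the replicate number as a block and 0 with the compared groups alone, and the cause was not tested. Leaving out 1 library gave 0 to 1 members there. In PATU-8988T it gave 0 to 26 at 24 h on the spike-in scale, 0 to 17 at 24 h after centring and 0 to 20 at 6 h after centring, and for the difference between the lines 0 to 2 (24 h) and 0 to 13 (6 h), each highest value without PATU-8988T DMSO replicate 1. Most reported member counts under the inhibitor are 0, so their constancy over the other alternatives shows little.

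The line difference in DMSO gave 16 to 21 members on the spike-in scale and 20 to 31 after centring. Without the filter the centred split was 11 higher and 9 lower in place of 8 and 19, and with PATU-8988T DMSO replicates 2 and 3 left out together, an alternative added after seeing the data that leaves 1 library, the spike-in split was 17 and 4 in place of 10 and 9. Under the latter NEU1 changed sign to 0.0426 on the spike-in scale, and the cause was not tested.

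Replicate numbers did not pair the libraries: same-numbered deviations correlated at -0.222 to 0.143, and in no comparison did every library correlate best with its own number. With the replicate block the member counts were as reported except in PATU-8902 at 24 h after centring (1 to 0). Depth is unknown, and the spread between libraries limits what could be seen.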
